A study of Mus musculus with 36 samples.

Results

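The data described here are the 6 libraries of unstimulated C2C12 myotubes that carried the negative control LNA (Rest control), taken from 36 libraries in all and chosen by their titles: replicates 1 to 3 form 1 set and replicates 4 to 6 the other (3 libraries each). C2C12 is a mouse myoblast line whose cells leave the cell cycle and fuse into multinucleate myotubes in differentiation medium. All 6 cultures were transfected on day 3 of differentiation with a locked nucleic acid antisense oligonucleotide that has no intended target, and were harvested on day 4, 24 h later, after lying under carbon electrodes that were not connected. The other 30 libraries come from myotubes with an LNA against *Tug1* (*Tug1* KD), and from control and *Tug1* KD myotubes after 3 h of electrical pulse stimulation, taken at its end (EPS 0h) or 3 h later (EPS 3h), again as replicates 1 to 6 per group. The study describes 2 independent experiments with 3 wells each per group, and the text does not say which replicate numbers belong to which experiment. The sets were compared because the libraries part in this way in the data, so the counts below describe a split that was already seen. Anything else that differed between the sets, such as passage, reagents, RNA handling and sequencing depth, cannot be told apart from it. As wells of a set may share an experiment, p-values measure only the spread between wells.

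Myogenic differentiation runs in steps. The factors MyoD and myogenin, with MEF2 proteins, switch on fusion genes and then the genes of the sarcomere, the repeating contractile unit of thick myosin and thin actin filaments, and those that couple membrane excitation to calcium release. Thick filament genes change with maturation, as embryonic and perinatal myosin heavy chains come before the adult fast and slow forms. A C2C12 culture also keeps mononuclear reserve cells that do not fuse, which make extracellular matrix and can still divide, so bulk RNA sums over both kinds of cell. Fewer cells of a type and less RNA per cell cannot be told apart in such samples.

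Replicates 4 to 6 had higher RNA levels of many cholesterol and fatty acid synthesis genes and secreted matrix proteins, and lower levels of most myosin heavy chains, of giant sarcomere proteins, calcium release genes and many lncRNAs. Of 13995 genes tested, 1194 (8.53%) were higher and 1363 (9.74%) lower in replicates 4 to 6 than in replicates 1 to 3 at a false discovery rate (FDR, edgeR's quasi-likelihood test with Benjamini-Hochberg adjustment) under 0.05. Most differences were modest. The median log2FC, here always replicates 4 to 6 minus 1 to 3, was 0.50 among the genes called higher and -0.59 among those called lower, against -0.04 over all genes tested. A log2FC beyond 1 was found for 85 of the former (0.607% of genes tested) and 220 of the latter (1.57%). The 3 libraries of a set did not overlap with those of the other in 42.3% of all genes tested. They did not overlap in 2486 of the 2557 genes called. These genes were selected from the same libraries for a gap between the sets, so this count is no support for the calls. Correcting each library for transcript length and GC content moved the split from 46.7% to 57.9% of calls higher (1919 higher and 1395 lower). The size of the split, 2557 of 13995 genes called in either direction, can be set beside the effect of the *Tug1* LNA at Rest. In the same fit that effect was called, in either direction, for 1239 genes (8.85%) in replicates 1 to 3. In replicates 4 to 6 it was called for 2046 genes (14.6%).

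**Figure D1:**
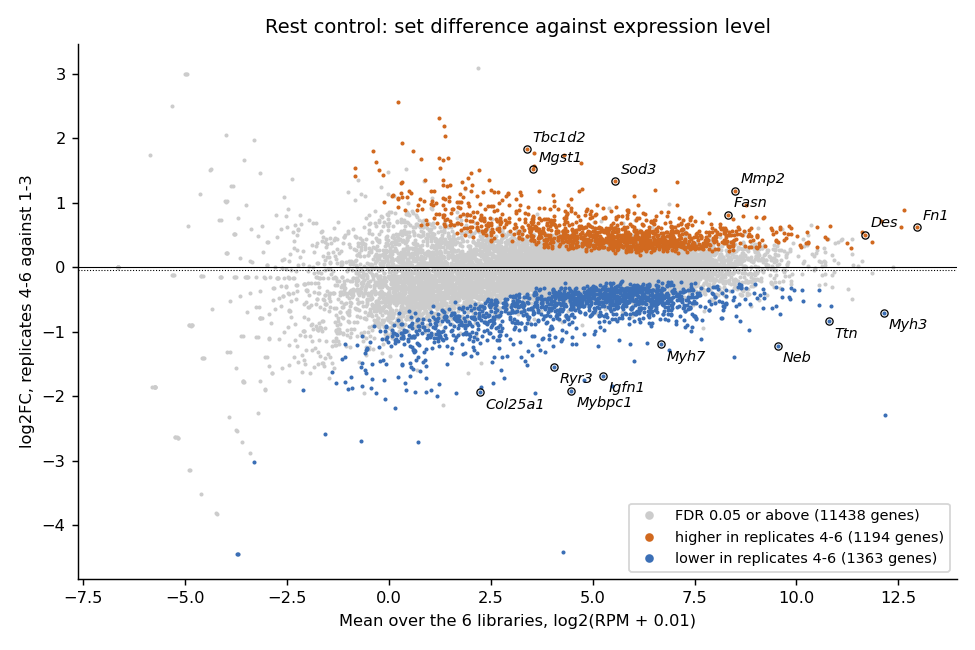
Difference between the replicate sets (log2FC, y axis) against mean expression over the 6 Rest control libraries (log2 of RPM plus 0.01, x axis) for the genes tested, with orange for the 1194 higher, blue for the 1363 lower in replicates 4 to 6 at an FDR under 0.05 and grey for the rest. Of the genes named on the plot, *Tbc1d2* (1.83) and *Mgst1* (1.52) lie highest and *Col25a1* (-1.94) and *Mybpc1* (-1.92) lowest, and the dotted line marks the median of all genes tested (-0.04).

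Counts on genes ranged from 17675366 to 20067977 in replicates 1 to 3 and from 20243633 to 22516122 in replicates 4 to 6, and the ranges did not overlap. Messenger RNA of the mitochondrial genome took 0.989% to 1.22% of counts in the former and 1.24% to 1.80% in the latter. Ribosomal RNA (nuclear and mitochondrial) and small non-coding RNAs, counted together, took 0.822% to 1.18% and 0.224% to 0.476%. All of these differences had an exact two-sided permutation p of 0.1, the smallest that 3 against 3 libraries allow. *Tug1* itself, the gene targeted in other groups, was expressed at 52.9, 58.3 and 46.5 RPM (counts scaled to a TMM-adjusted library of 1e+06 reads) in replicates 1 to 3 and at 38.6, 44.9 and 49.04 RPM in replicates 4 to 6, with overlapping sets (log2FC -0.25, SE 0.21, FDR = 0.421). Replicate 6 stood apart from replicates 4 and 5. Its median absolute log2 difference from them was 0.255 and 0.198, against 0.136 between replicates 4 and 5 and 0.101 to 0.141 within replicates 1 to 3. The median difference between the means of the sets was 0.232. In replicate 6 long transcripts were higher, with a median of 0.236 above the mean of replicates 4 and 5 (log2) in the longest 20% of genes and -0.114 in the shortest 20%. Lists whose counts moved by over 1.5 times without it are given both ways.

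The genes of the sarcomere were more often lower than higher in replicates 4 to 6. Of 55 structural genes tested (59 in the list), 25 were called lower and 3 higher, with a median log2FC of -0.40. Without replicate 6 the counts were 20 and 4 with a median of -0.32. *Mybpc1* (ENSMUSG00000020061, GRCm39, chr10:88354062-88441175), the slow form of myosin-binding protein C on the thick filament, was expressed at 34.9, 35.4 and 35.3 RPM in replicates 1 to 3 and at 7.94, 8.84 and 11.1 RPM in replicates 4 to 6. The former 3 libraries lay together far above the latter, a 3.78-fold difference (log2FC -1.92, SE 0.12, FDR = 5.74e-13). The giant proteins that set the length of the filaments were lower as well. *Ttn* (titin, the elastic spring of the thick filament) was at 2200.0, 2374 and 2270.3 RPM against 999, 1280.5 and 1540.5 RPM. *Neb* (nebulin, which lies along the thin filament) was at 901, 1094 and 1133 RPM against 317, 458 and 567 RPM. The sets did not overlap for either gene, and replicate 6 was the highest of its set for both, on the side of replicates 1 to 3. The log2FC was -0.84 (SE 0.18, FDR = 0.00123) for *Ttn* and -1.22 (SE 0.19, FDR = 7.19e-05) for *Neb*. Long transcripts were more often lower in general, with 13.7% of the longest 20% of all genes tested called lower and 6.06% higher (median -0.13). Calls also went with GC content. Of the 20% of genes lowest in GC, 13.6% were lower and 2.80% higher (median -0.20). Of the 20% highest in GC, 6.09% were lower and 12.4% higher (median 0.08). With correction for length and GC content the sarcomere list held 27 lower and 2 higher (median -0.32). The part of length and GC content was not tested gene by gene. Smaller genes of the list were among the lower as well, such as *Tcap* (telethonin, the cap on titin at the Z disc; 110.4, 109 and 119.6 against 68.2, 58.6 and 53.6 RPM, log2FC -0.91, SE 0.16). *Igfn1*, a Z-disc protein of the immunoglobulin superfamily, was lower by the rule for single genes, at 56.0, 58.1 and 60.7 RPM against 15.4, 19.1 and 19.7 RPM (log2FC -1.69, SE 0.15, FDR = 7.94e-09).

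The list did not move as a whole. The 3 members called higher were *Acta1* (skeletal α-actin of the thin filament), *Des* (desmin, the intermediate filament around the Z disc) and *Actn3* (α-actinin of fast fibres). *Acta1* was expressed at 3182, 2982 and 3399 RPM in replicates 1 to 3 and at 4421, 4301 and 3819 RPM in replicates 4 to 6. *Des* was at 2631, 2649 and 2871 RPM and at 4506, 4024 and 3031 RPM. Both pairs of sets are apart, with replicate 6 the lowest of its set. The log2FC of 0.39 (SE 0.12, FDR = 0.0261) for *Acta1* and 0.50 (SE 0.18, FDR = 0.0431) for *Des* did not pass the threshold when single libraries were left out, with an FDR of up to 0.11 and 0.24, and the same held for *Actn3* (0.40, FDR of up to 0.29). Fast myosin light chain *Mylpf* (log2FC 0.01, FDR = 0.97), the tropomyosins *Tpm1* (0.07, FDR = 0.63) and *Tpm2* (0.03, FDR = 0.9), and troponin *Tnnc1* (-0.07, FDR = 0.79) did not pass, and *Tnnt3*, the troponin T of fast fibres, was lower (log2FC -0.61).

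Of 9 genes tested of the myosin heavy chain list (10 in the list) 7 were called lower and 1 higher, with a median log2FC of -0.71 and of -0.81 without replicate 6. The only tested member not called, *Myh14* (log2FC -0.32, FDR = 0.157), encodes a non-muscle heavy chain, and the others are sarcomeric. The embryonic gene *Myh3* (chr11:66969126-66993117) was expressed at 5572, 5547 and 5739 RPM in replicates 1 to 3 and 3131, 3421 and 3731 RPM in replicates 4 to 6. The sets did not overlap (log2FC -0.71, SE 0.11, FDR = 3.12e-05). The perinatal gene *Myh8*, on chromosome 11 as well, was at 585, 600.4 and 620.0 RPM against 262, 318 and 339 RPM (log2FC -0.98, SE 0.11). The slow or cardiac β gene *Myh7* was at 133, 147 and 151 RPM against 57.6, 65.5 and 64.5 RPM (log2FC -1.20, SE 0.11). The α-cardiac gene *Myh6*, next to *Myh7*, was at 15.9, 19.03 and 22.4 RPM against 5.19, 6.26 and 3.44 RPM, and had the lowest log2FC of the family (-1.95, SE 0.26, FDR = 7.14e-06). Among the adult fast forms the direction varied. *Myh2* (type IIa) was at 73.6, 85.9 and 91.4 RPM against 35.8, 46.6 and 27.8 RPM (log2FC -1.19, SE 0.20). *Myh4* (type IIb) went the other way, at 149, 153 and 165 RPM against 208, 217 and 245 RPM (log2FC 0.52, SE 0.11, FDR = 0.00116). *Myh1* (type IIx) was at 1628, 1652 and 1752 RPM against 1231, 1345 and 1373 RPM (log2FC -0.35, SE 0.10, FDR = 0.0167). In each of these 3 genes the sets were apart, and the call for *Myh1* was lost when replicate 3 or 4 was left out. The members are alike in sequence, so that reads of their shared stretches could have been assigned among them by the counting.

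**Figure D2:**
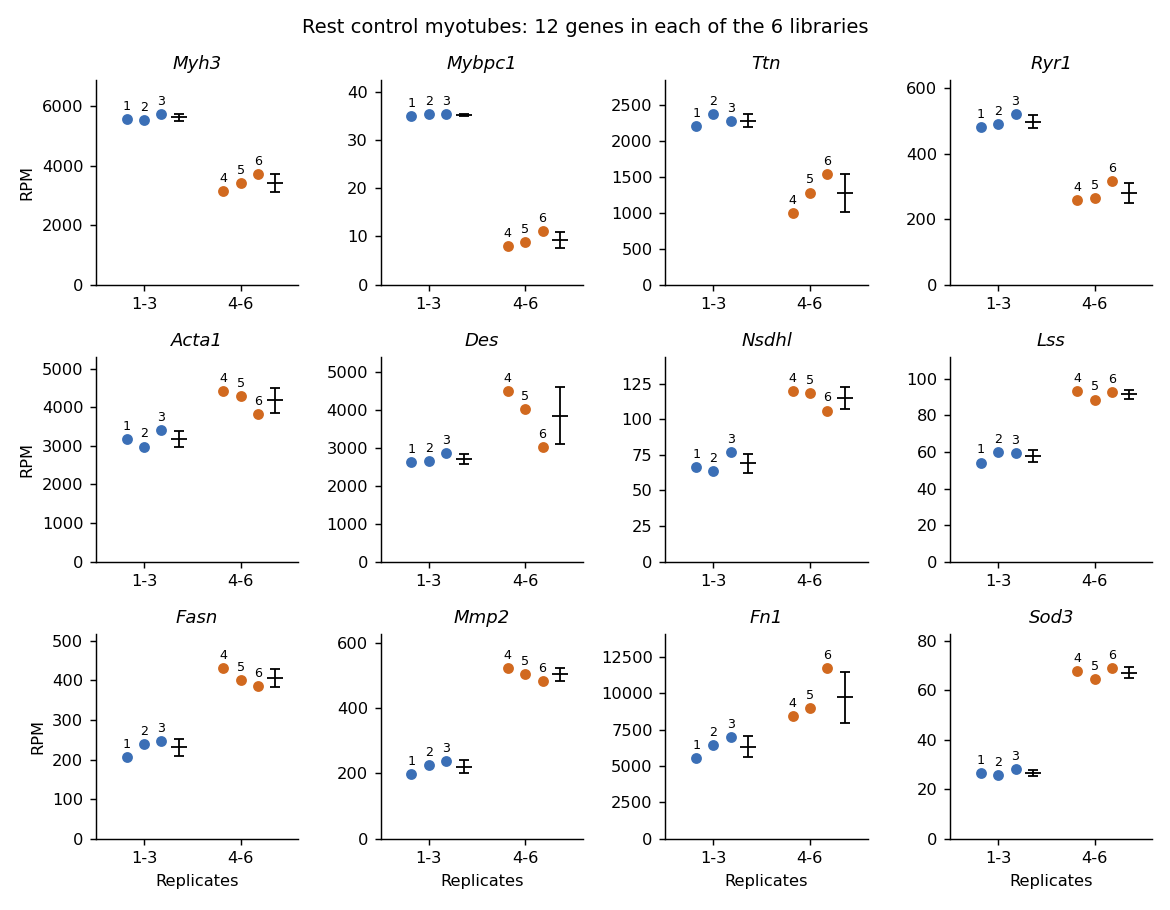
Expression (RPM, y axes from 0) of 12 genes in the 6 Rest control libraries, blue for replicates 1 to 3 and orange for replicates 4 to 6, with the replicate number above each point and the mean with its SD (n = 3) in black beside each set. *Mybpc1* has a mean of 35.2 RPM in replicates 1 to 3 and 9.31 RPM in replicates 4 to 6 and *Nsdhl* one of 69.0 and 115 RPM, while in *Ttn*, *Des* and *Fn1* the point of replicate 6 lies apart from those of replicates 4 and 5.

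Genes that pass the membrane signal to calcium release went with the sarcomere. Of 31 tested (33 in the list), 13 were called lower and 1 higher, with a median log2FC of -0.31, and without replicate 6 the counts were 11 and 3. *Ryr1*, the calcium release channel of skeletal muscle, was expressed at 483, 490.4 and 522 RPM in replicates 1 to 3 and 259.9, 265 and 316 RPM in replicates 4 to 6 (log2FC -0.83, SE 0.13, FDR = 8.96e-05). *Ryr3*, another isoform, found in immature muscle, was at 25.9, 25.8 and 23.03 RPM against 6.91, 7.67 and 10.9 RPM (log2FC -1.55, SE 0.18, FDR = 8.01e-07). In both genes the sets were well apart. The channel that senses voltage, *Cacna1s* (log2FC -0.63), its partner *Stac3* (-0.74), the junctional proteins *Jph1* (-0.69) and *Trdn* (-1.21) and the calcium-dependent kinase *Camk2b* (-1.06) were lower too. The member called higher was *Pvalb*, parvalbumin, a calcium buffer of fast fibres (1.99, 1.99 and 2.46 against 6.78, 6.26 and 4.67 RPM, log2FC 1.46, SE 0.22). Of 22 neuromuscular junction genes, 9 were lower and 1 was higher (median -0.25), and without replicate 6 the counts were 9 and 2. Among them, the acetylcholine receptor subunit *Chrnb1* (374, 359.7 and 379 against 235, 234 and 278 RPM, log2FC -0.58, SE 0.09) and the dystrophin-associated *Sntb1* (106, 117 and 111 against 37.4, 52.1 and 59.1 RPM, log2FC -1.17, SE 0.14) had sets that did not overlap. The member called higher, *Crtap*, is known for its part in collagen modification.

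Among the upstream regulators of differentiation, 5 of 22 myogenic factors tested were lower (22.7%, against 9.74% of all genes) and 0 higher. The median log2FC was -0.30. Without replicate 6 the number lower was 3 and the median -0.34, and after correction for length and GC content 7 were lower and the median was -0.17. The sets were apart and lower in 13 of the 22, and apart and higher in 0. Over all genes tested they were apart, in either direction, in 42.3%. *Mef2c*, which drives sarcomere genes with the MyoD family, was at 119, 109.8 and 118 RPM in replicates 1 to 3 and 67.3, 79.1 and 75.3 RPM in replicates 4 to 6 (log2FC -0.65, SE 0.15, FDR = 0.00375). *Myog*, which encodes myogenin, was at 1044, 1013 and 1049 RPM against 886, 814 and 773 RPM. Although these sets were apart, the difference was near the threshold (log2FC -0.33, SE 0.12, FDR = 0.0489) and missed it whenever a library was left out. *Myod1* was at 85.5, 87.3 and 86.0 RPM against 80.8, 78.4 and 83.8 RPM and did not pass (log2FC -0.09, SE 0.11, FDR = 0.592). The fusion list (27 genes) held 4 higher and 5 lower genes with a median of 0.13, and 6 and 4 with a median of 0.07 without replicate 6. Its pair of muscle-specific fusogens did not pass, *Mymk* with a log2FC of 0.33 (SE 0.14, FDR = 0.0891) and *Mymx* with 0.62 (SE 0.24, FDR = 0.0641). The highest value of the list was that of *Elmo1*, a regulator of Rac, at 0.628, 0.739 and 1.06 RPM against 2.06, 2.54 and 3.19 RPM (log2FC 1.68, SE 0.28). Of 26 genes that inhibit differentiation or mark reserve cells, 3 were higher and 1 lower (median 0.02), and 2 and 1 without replicate 6. *Cd34*, a surface protein of progenitor cells, was the most distinct, with 22.5, 24.3 and 23.4 RPM against 51.8, 43.4 and 42.5 RPM (log2FC 0.97, SE 0.11, FDR = 4.37e-07). *Pax7*, the marker of satellite cells, was at 18.3, 17.7 and 16.8 RPM against 18.2, 19.1 and 20.5 RPM, with overlapping sets (log2FC 0.13, SE 0.16, FDR = 0.616).

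The cell cycle list showed little difference as a whole. Of 83 genes tested, 10 were higher and 2 lower, with a median log2FC of 0.06, and without replicate 6 the counts were 11 and 6. The genes called higher were *Mcm2*, *Mcm3*, *Mcm5*, *Mcm7*, *Cdt1*, *Pcna*, *Lig1*, *Rrm2*, *E2f1* and *Ccnd1*. The calls for *Mcm5*, *Pcna*, *Lig1*, *Rrm2* and *E2f1* were lost when single libraries were left out, with an FDR of up to 0.24. *Mcm3*, a subunit of the replicative helicase, was at 15.9, 15.5 and 17.2 RPM in replicates 1 to 3 and 26.1, 22.4 and 22.5 RPM in replicates 4 to 6 (log2FC 0.55, SE 0.09, FDR = 0.000179). *Ccnd1* (cyclin D1, which drives G1 cells onward) was at 17.3, 20.5 and 20.4 RPM against 29.3, 27.3 and 30.5 RPM (log2FC 0.58, SE 0.13, FDR = 0.00288). Both genes had sets apart. *Cdk2*, the kinase of S phase, was lower, at 68.6, 68.1 and 65.0 RPM against 52.1, 48.9 and 51.3 RPM (log2FC -0.41, SE 0.09, FDR = 0.00265). *Mki67* (Ki-67, a chromosome-coating protein of dividing cells) was at 44.99, 48.9 and 43.9 RPM against 25.97, 38.3 and 51.8 RPM, so that replicate 4 was the lowest and replicate 6 the highest of all 6 libraries (log2FC -0.25, SE 0.18, FDR = 0.361). *Cdk1*, the mitotic kinase, had a log2FC of 0.17 (SE 0.15, FDR = 0.449). Of the 19 genes of cell cycle exit 1 was higher and 2 lower (1 and 1 without replicate 6), and of 35 p53 targets 2 were higher and 2 lower (1 and 4 without it).

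**Figure D3:**
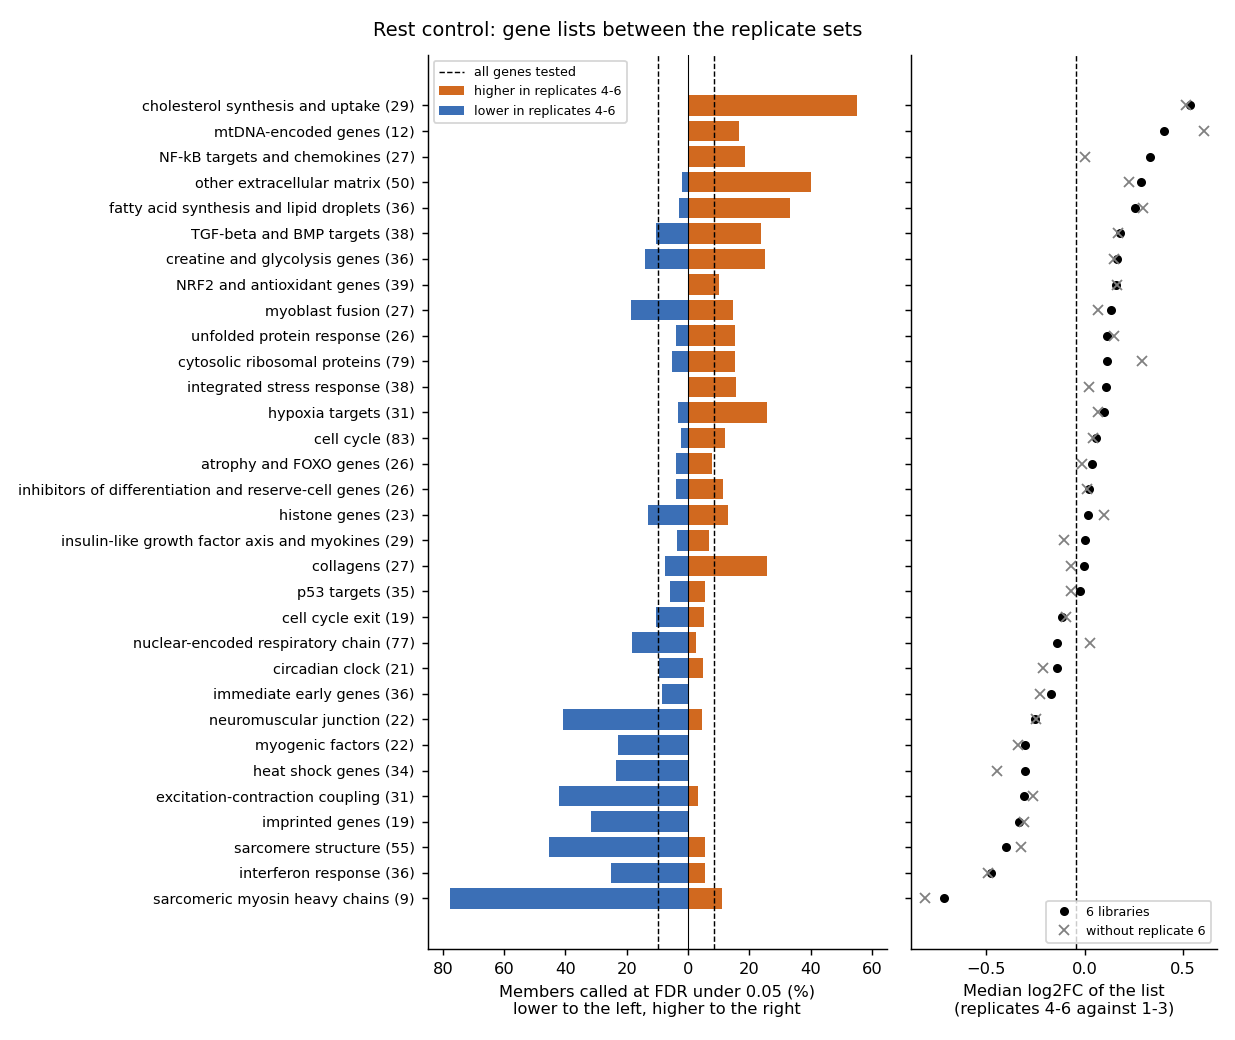
Gene lists with 9 or more genes tested (markers of other cell types left out) in Rest control myotubes, ordered by their median log2FC, with the number of genes tested in brackets. Left, the percentage of each list called higher (orange) or lower (blue) in replicates 4 to 6, with dashed lines at the 8.53% and 9.74% of all genes tested; right, the median log2FC with all 6 libraries (black points) and without replicate 6 (grey crosses), with a dashed line at the median of all genes tested, -0.04. With all 6 libraries cholesterol synthesis lies at the top with 16 of 29 genes higher, and myosin heavy chains lie at the bottom with 7 of 9 lower.

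A majority of the genes of cholesterol synthesis and uptake were higher. This pathway builds sterols from acetyl-CoA through mevalonate and squalene, and the SREBP-2 transcription factor drives most of its genes together when sterols in the endoplasmic reticulum run low. Of the 29 genes, all of which were tested, 16 were called higher and 0 lower, against 8.53% and 9.74% of all genes, with 28 positive values and a median log2FC of 0.53. Without replicate 6 the counts were the same and the median was 0.51. Correction for length and GC content gave 21 higher, 0 lower and a median of 0.49.

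The genes called higher reach from *Acat2* at the head of the pathway (log2FC 0.83), which joins acetyl-CoA units, to its last steps. *Fdft1* (squalene synthase) was at 125, 123 and 133 RPM against 226, 213 and 191 RPM (log2FC 0.73, SE 0.12). *Lss*, which closes squalene epoxide into lanosterol, was at 54.2, 60.1 and 59.6 RPM against 93.3, 88.6 and 92.6 RPM (log2FC 0.66, SE 0.09, FDR = 5.47e-06). *Cyp51*, the lanosterol demethylase, was at 217, 215 and 213 RPM against 361, 338 and 329 RPM (log2FC 0.67, SE 0.12). The sets were apart in each, as they were for *Nsdhl*, which removes methyl groups at C-4 (66.2, 63.9 and 76.8 against 119.9, 119 and 106 RPM, log2FC 0.74, SE 0.11). The mevalonate enzymes *Mvk* (log2FC 0.88) and *Mvd* (0.86), and *Sqle* (0.51), *Msmo1* (0.64), *Ebp* (0.62) and *Tm7sf2* (0.83) were higher as well, of which *Msmo1* lost its call when single libraries were left out (FDR of up to 0.15). In contrast, *Hmgcs1*, which makes HMG-CoA, was at 152, 142 and 135 RPM against 144, 142 and 141 RPM (log2FC -0.01, SE 0.23, FDR = 0.982). These sets overlapped. The regulator *Srebf2* had a log2FC of 0.25 (SE 0.09, FDR = 0.0656), *Scap*, which escorts SREBPs, was higher (0.56), and *Insig1*, which retains them, did not pass (0.29, FDR = 0.09). Of 2 sterol exporters, *Abcg1* was higher at a low level (1.78, 1.80 and 2.31 against 5.92, 4.33 and 4.42 RPM, log2FC 1.31, SE 0.22), and *Abca1* did not pass (0.49, FDR = 0.28).

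Promoter sequences are shown for 4 of these genes, 3 that were called and *Hmgcs1*, which was not, because their members moved together to different degrees. Each is the 250 bases before the gene start in RefSeq (GRCm38.p6, read 5′ to 3′ on the gene's strand), with the letters CCAAT or their complement ATTGG in capitals. *Lss* lies on the plus strand at chr10:76531355-76531604, *Nsdhl* on the plus strand at chrX:72918271-72918520, *Cyp51* on the minus strand at chr5:4104698-4104947 and *Hmgcs1* on the plus strand at chr13:119690101-119690350.
Lss: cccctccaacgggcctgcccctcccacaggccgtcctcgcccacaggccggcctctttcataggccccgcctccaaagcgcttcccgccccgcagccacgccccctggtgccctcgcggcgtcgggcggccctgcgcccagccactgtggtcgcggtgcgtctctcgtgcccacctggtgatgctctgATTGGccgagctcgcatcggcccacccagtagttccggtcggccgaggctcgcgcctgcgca
Nsdhl: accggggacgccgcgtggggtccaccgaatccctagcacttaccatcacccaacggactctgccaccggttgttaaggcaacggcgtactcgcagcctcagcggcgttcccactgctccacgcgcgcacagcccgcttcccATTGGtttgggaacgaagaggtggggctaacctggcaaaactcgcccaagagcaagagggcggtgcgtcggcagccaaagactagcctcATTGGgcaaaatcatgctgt
Cyp51: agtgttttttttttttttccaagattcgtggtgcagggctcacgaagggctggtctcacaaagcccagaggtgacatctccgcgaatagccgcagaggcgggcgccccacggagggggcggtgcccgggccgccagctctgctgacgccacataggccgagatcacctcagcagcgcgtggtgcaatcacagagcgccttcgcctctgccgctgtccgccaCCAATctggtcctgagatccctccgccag
Hmgcs1: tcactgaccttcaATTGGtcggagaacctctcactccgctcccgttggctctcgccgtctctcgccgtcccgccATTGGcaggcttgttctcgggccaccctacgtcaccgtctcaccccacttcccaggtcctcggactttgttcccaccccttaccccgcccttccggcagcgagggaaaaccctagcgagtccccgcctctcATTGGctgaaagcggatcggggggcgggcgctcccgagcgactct
The CCAAT box, bound by NF-Y, a partner of SREBPs, was found on either strand in the promoters of 17 of the 20 list members with an entry (85.0%), against 40.5% of the 10488 tested genes with one. It was there in 8 of 10 members called higher and in 9 of 10 that were not, so these letters do not part them. A sterol element written as TCACNCCAC was in 1 of the 20 (*Hmgcs1*) and in 1.23% of tested genes. A match of letters is no measured site, and no match says only that the letters are not in this window. *Fdft1* has no entry in the table.

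Fatty acid genes, many of them driven by SREBP-1, were also more often higher than lower. Of 36 tested (43 in the list of synthesis and lipid droplet genes) 12 were higher and 1 lower, with a median log2FC of 0.25. *Fasn*, the fatty acid synthase, was at 206, 239 and 248 RPM in replicates 1 to 3 and 431, 402 and 386 RPM in replicates 4 to 6 (log2FC 0.81, SE 0.12, FDR = 2.49e-05). *Fads2*, the first desaturase of polyunsaturated fatty acids, was at 115, 127 and 135 RPM against 203, 203 and 195 RPM (log2FC 0.68, SE 0.11). *Srebf1*, which encodes SREBP-1, was at 223, 211 and 213 RPM against 299.8, 291 and 312 RPM (log2FC 0.48, SE 0.12, FDR = 0.00603). None of these sets overlapped. *Fads1* (0.54), *Scd1* (0.43), *Scd2* (0.44), *Acaca* (0.47), *Acly* (0.33) and *Elovl1* (0.48) were also higher. The member called lower was *Acadm* (-0.24), which burns medium-chain fatty acids. The calls for *Acaca*, *Elovl1* and *Acadm* were lost when single libraries were left out (FDR of up to 0.22). Of 10 adipocyte markers 3 were tested. *Cebpa*, a transcription factor of fat cells and other tissues, was higher, at 27.5, 30.2 and 27.3 RPM against 54.2, 47.8 and 42.2 RPM with sets apart (log2FC 0.76, SE 0.23, FDR = 0.0181), and its call was lost without replicate 1, 3 or 4. *Pparg*, which drives fat cell formation, was at 26.8, 22.6 and 19.2 RPM against 16.8, 17.9 and 21.5 RPM (-0.29, FDR = 0.12), and *Lpl*, lipoprotein lipase, at 24.9, 27.8 and 25.999 RPM against 18.9, 22.3 and 21.8 RPM (-0.32, FDR = 0.126). Neither passed. *Plin1*, *Cidec*, *Retn*, *Fabp4* and *Adipoq* did not exceed 0.21 RPM in any Rest control library. The part of such cells in the lipid values was not tested.

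Genes of secreted matrix proteins were more often higher than lower. Of 50 genes of the matrix other than collagens, 20 were higher and 1 lower, with a median log2FC of 0.29, and without replicate 6 the counts were 17 and 1 with a median of 0.23. *Mmp2* (chr8:93553902-93580049), a gelatinase that cleaves denatured collagen, was at 199.7, 225 and 238 RPM in replicates 1 to 3 and 523, 505 and 482 RPM in replicates 4 to 6, 2.28-fold higher (log2FC 1.19, SE 0.13, FDR = 1.88e-07). *Mfap5*, a protein of elastic microfibrils, was at 13.3, 16.3 and 16.9 RPM against 38.4, 34.8 and 31.9 RPM (log2FC 1.18, SE 0.17). *Fbln2*, a fibulin of basement membranes, was at 277, 304 and 325 RPM against 517, 498 and 559 RPM (log2FC 0.80, SE 0.12). The sets were apart in all 3. *Fn1*, fibronectin, was at 5570.0, 6484 and 6983 RPM against 8471, 8992 and 11749 RPM (log2FC 0.62, SE 0.12, FDR = 0.000632), and replicate 6 was its highest library. The cross-linking enzymes *Lox* (0.58), *Loxl1* (0.45) and *Loxl3* (0.63) were also higher, and laminin *Lama2* (-0.50), of the muscle basement membrane, was lower. Of these the calls for *Lox*, *Loxl1* and *Lama2* were lost when single libraries were left out (FDR of up to 0.18).

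Collagens were mixed, with 7 higher and 2 lower of 27 and a median log2FC of -0.00. *Col3a1* (log2FC 0.38, SE 0.12, FDR = 0.0286) and *Col1a2* (0.38, SE 0.09, FDR = 0.00462) were higher. The call for *Col3a1* was lost without replicate 1, 4 or 5 (FDR of up to 0.15) and that for *Col1a2* without replicate 4 (FDR = 0.0617). *Col1a1*, the partner chain of *Col1a2* in type I collagen, was at 376, 423 and 446 RPM against 446, 375 and 399 RPM with overlapping sets (-0.03, SE 0.13, FDR = 0.906). *Col25a1*, a transmembrane collagen that muscle needs for its innervation, was lower, at 6.96, 6.47 and 8.90 RPM against 1.502, 2.21 and 2.08 RPM (log2FC -1.94, SE 0.20). Among fibroblast markers 9 of 12 were tested, and *Cd34*, *Pdgfrb* (0.71), *Ly6a* (0.38) and *Gsn* (0.33) were higher and *Pi16* (-0.90) lower, with *Tcf21* at 0 counts in all 6 libraries. The calls for *Ly6a* and *Gsn* were lost when any of replicates 1 to 5 was left out, with an FDR of up to 0.21 and 0.25, and that for *Ly6a* also with scaling by library size only (FDR = 0.0534). *Pdgfrb*, the receptor for platelet-derived growth factor, was at 147, 151 and 174 RPM against 251, 253 and 265 RPM with sets apart. The part of such cells in the matrix values was not tested. Of the TGF-beta and BMP list 9 of 38 were higher and 4 lower (median 0.18), with the BMP antagonist *Grem1* higher (0.77) and the antagonists *Nog* (-0.74), *Chrd* (-0.64) and *Fst* (-0.51) lower.

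Stress programmes did not share a direction. Heat shock genes, which encode chaperones, held 0 higher and 8 lower of 34, with a median log2FC of -0.30 and 14 lower without replicate 6 (median -0.44). *Hspe1*, the mitochondrial co-chaperonin, was at 516, 469 and 408 RPM in replicates 1 to 3 and 268, 287 and 265 RPM in replicates 4 to 6 (log2FC -0.76, SE 0.17, FDR = 0.00283). *Hspb3*, a small heat shock protein of muscle, was at 27.3, 27.3 and 29.5 RPM against 17.04, 16.2 and 17.4 RPM (log2FC -0.73, SE 0.16, FDR = 0.00159). Both genes had sets apart. The inducible *Hspa1a* varied within replicates 1 to 3, at 323, 242 and 114 RPM against 136, 87.5 and 132 RPM. Its sets overlapped, its call (log2FC -0.93, SE 0.29, FDR = 0.0217) was lost in alternatives with an FDR of up to 0.21, and reads could have been split with its near-identical neighbour *Hspa1b*.

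Genes of the endoplasmic reticulum and amino acid stress branches were called higher more often than lower, in small numbers. Of 38 genes of the integrated stress response, in which ATF4 raises amino acid supply, 6 were higher and 0 lower (median 0.11, and 0.02 without replicate 6). Of 26 genes of the unfolded protein response 4 were higher and 1 lower (median 0.11), and with correction for length and GC content 11 and 1 (median 0.24). *Calr* (calreticulin, a lectin chaperone) was at 504, 517 and 569 RPM against 906, 840.2 and 674 RPM (log2FC 0.61, SE 0.12, FDR = 0.000654). *Xbp1*, a transcription factor of this response, was at 107, 109.6 and 103 RPM against 176, 158 and 137 RPM (log2FC 0.56, SE 0.11, FDR = 0.00107). *Asns*, asparagine synthetase, was at 109.7, 99.3 and 95.04 RPM against 142, 131 and 129.7 RPM (log2FC 0.40, SE 0.11, FDR = 0.00774). In all 3 the sets were apart, and replicate 6 was the lowest of its set. *Hsp90b1*, the chaperone of the endoplasmic reticulum, was the lower member (-0.54), a call lost without replicate 4 (FDR = 0.0696). Of 39 NRF2 and antioxidant genes 4 (10.3%, near the 8.53% of all genes) were higher and 0 lower (median 0.16), and with the correction 9 and 1. The list was led by *Sod3*, the extracellular superoxide dismutase, at 26.5, 25.6 and 28.1 RPM against 67.7, 64.6 and 69.1 RPM (log2FC 1.33, SE 0.15, FDR = 3.51e-07). Of 31 hypoxia targets 8 were higher and 1 lower (median 0.10). Those higher included *Ndrg1* (0.71), *Ldha* (0.51) and *Slc2a1* (0.34), the glucose transporter of most cells. The member called lower was *Epas1* (log2FC -1.87, FDR = 0.00612). *Slc2a4*, the insulin-regulated glucose transporter of muscle and not a call of this list, was lower, at 3.61, 2.36 and 4.02 RPM against 1.93, 1.79 and 1.27 RPM. The calls for *Ldha*, *Slc2a1* and *Slc2a4* were lost when single libraries were left out (FDR of up to 0.19). Glycolysis and creatine genes held 9 higher and 5 lower of 36, with *Eno1*, enolase, at 661, 710.2 and 740.4 RPM against 1288, 1146 and 869 RPM (log2FC 0.65, SE 0.13).

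**Figure D4:**
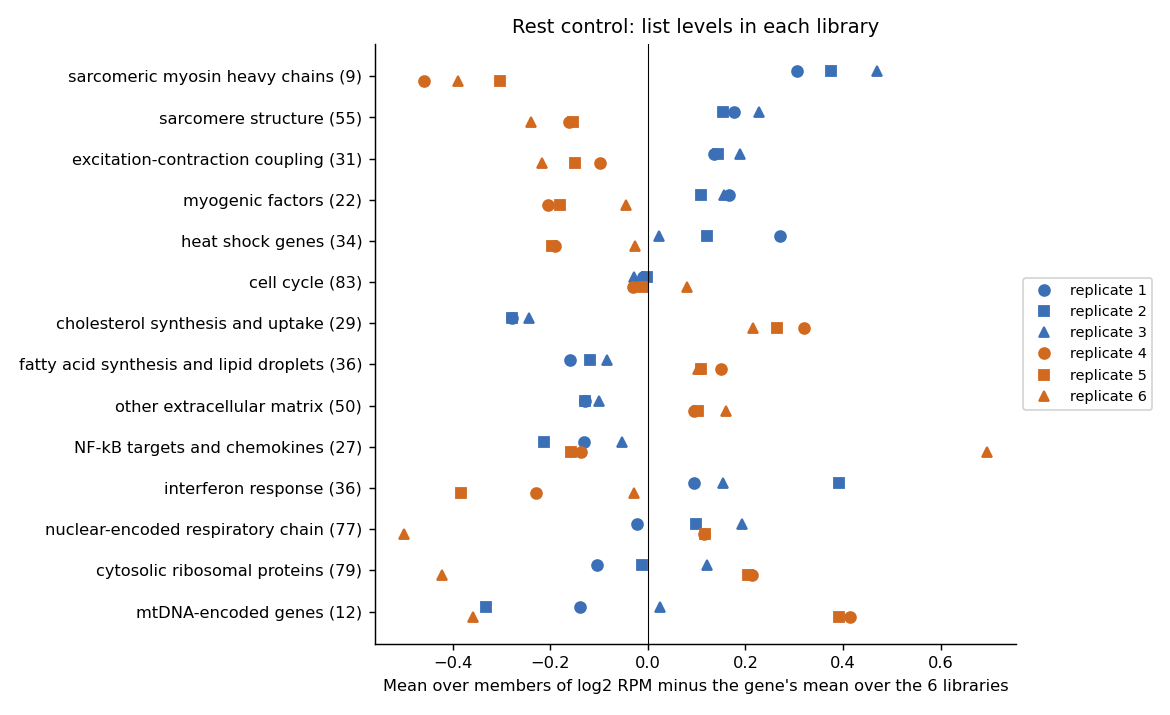
Level of 14 gene lists in each Rest control library (x axis, mean over the members tested of log2 RPM minus the gene's mean over the 6 libraries), blue for replicates 1 to 3 and orange for replicates 4 to 6, with a marker shape for each library. Cholesterol genes lie from -0.28 to -0.24 in replicates 1 to 3 and from 0.22 to 0.32 in replicates 4 to 6, whereas for NF-kB targets, respiratory chain, ribosomal protein and mtDNA-encoded genes replicate 6 lies away from replicates 4 and 5.

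Several lists followed replicate 6 and not the set. Targets of NF-kB and chemokines had a mean level (log2, relative to the 6 libraries) of -0.13, -0.21 and -0.05 in replicates 1 to 3, of -0.14 and -0.16 in replicates 4 and 5 and of 0.70 in replicate 6. The list held 5 higher and 0 lower of 27 genes with a median log2FC of 0.33, and without replicate 6 it held 2 higher and 1 lower with a median of 0.00. *Cxcl1*, a neutrophil chemokine, was at 29.4, 28.95 and 43.8 RPM against 15.8, 20.3 and 117 RPM. *Ccl2*, which attracts monocytes, was at 47.3, 42.3 and 79.5 RPM against 43.1, 51.05 and 159 RPM. *Cxcl5*, another neutrophil chemokine, was at 8.11, 7.11 and 11.5 RPM against 6.70, 7.53 and 32.8 RPM. Replicate 6 was the highest of the 6 libraries for all 3 genes, replicate 3 was the next, and none passed (FDR = 0.42, 0.278 and 0.211). The macrophage gene *Adgre1* was at 0 counts in all 6 libraries and *Ptprc*, found on all white blood cells, at no more than 0.0858 RPM. Of this list 2 of 8 were tested, and *Cd14*, the co-receptor for endotoxin, was higher (log2FC 1.03) in all 3 libraries of replicates 4 to 6.

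As list means, genes of the respiratory chain and the ribosome were lowest in replicate 6. The level of the 77 nuclear-encoded respiratory chain genes was -0.02, 0.10 and 0.19 in replicates 1 to 3, 0.11 and 0.12 in replicates 4 and 5 and -0.50 in replicate 6. With it, 2 were higher and 14 lower (median -0.14), and without it 9 were higher and 3 lower (median 0.03). Ribosomal protein genes, which are short, were at -0.10, -0.01 and 0.12, then at 0.21 and 0.20, and at -0.42 in replicate 6. Of 79 tested 12 were higher and 4 lower (median 0.11), and 17 and 3 without it (median 0.29). Among those lower, *Rpl23a* was at 27.1, 43.8 and 57.1 against 14.7, 15.9 and 7.56 RPM (log2FC -1.75). *Rpl35* was at 68.3, 97.1 and 117 against 41.1, 46.3 and 16.1 RPM (log2FC -1.45). Both had sets apart and kept the call without replicate 6 (FDR = 0.0078 and 0.0126). The mtDNA-encoded genes were at -0.14, -0.33 and 0.03, then 0.41 and 0.39, and -0.36 in replicate 6. Of 12 tested 2 were higher (median 0.40), without replicate 6 the number was 5 (median 0.60), and with correction for length and GC content 7 (median 0.70), with 0 lower in each case. Among those higher was *mt-Co1*, a subunit of cytochrome c oxidase, at 4334, 4171 and 4888 RPM against 9377, 9035 and 6379.6 RPM (log2FC 0.89, SE 0.22, FDR = 0.00508). The part of transcript length in these values, which moved with replicate 6, was not tested gene by gene. The position of replicate 6 was also taken over the genes called without it, which its own values did not choose. On a scale where 0 is the mean of replicates 1 to 3 and 1 the mean of replicates 4 and 5, its median position was 0.621 for the 1269 genes then higher and 0.503 for the 1667 then lower. It was nearer to replicates 4 and 5 in 789 (62.2%) of the former and in 843 (50.6%) of the latter. Replicates 1 to 5 both chose these genes and set the scale, so any further library would tend to fall short of 1. These values therefore cannot tell whether replicate 6 lay between the sets.

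Genes of lncRNAs were called lower more often than higher. Of 824 lncRNA genes tested, 6 (0.728%) were higher and 127 (15.4%) lower, with a median log2FC of -0.41, whereas the 12581 protein-coding genes held 1146 higher and 1196 lower with a median of -0.02. Without replicate 6 the lncRNA counts were 5 and 113, and with correction for length and GC content 7 and 111 with a median of -0.33. The median of their mean RPM was 1.72, and the least expressed 20% of all genes tested, up to 3.42 RPM, also had more lower than higher calls (8.07% and 3.07%, median -0.26). In Rest *Tug1* KD 12 lncRNA genes were higher and 36 lower between the sets, with a median of -0.05. The part of the expression level in the lncRNA values was not tested. *Rn18s*, the gene of the small ribosomal subunit's RNA, which poly-A selection should remove, was at 7399, 9587 and 6242 RPM in replicates 1 to 3 and 2009, 1817 and 889 RPM in replicates 4 to 6 (log2FC -2.30, SE 0.50, FDR = 0.00202). It was lower, with sets far apart. Ribosomal RNA is also part of the share counted together with small non-coding RNAs above, so that share is no separate observation. The part of this residue, or of nuclear and unprocessed RNA, in the lncRNA values was not tested.

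The promoter of *Ttn* (RefSeq, GRCm38.p6, minus strand, chr2:76982548-76982797, the 250 bases before the gene start) is shown because *Mef2c* and *Ttn* were both lower, with the letters of a MEF2 site (CTANNNNTAG) in capitals.
Ttn: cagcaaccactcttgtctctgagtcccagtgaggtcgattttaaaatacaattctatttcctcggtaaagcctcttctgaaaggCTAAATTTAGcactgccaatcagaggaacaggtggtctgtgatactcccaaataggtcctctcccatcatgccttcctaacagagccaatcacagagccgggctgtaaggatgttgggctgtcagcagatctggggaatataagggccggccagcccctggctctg
Such letters were in the promoters of 7 of 42 sarcomere genes with an entry (16.7%) and in 3.57% of the 10488 tested genes with one, at 3 of 20 members called and 4 of 22 not called. They were in 0 of the 9 promoters of the myosin heavy chain list. An E-box (CANNTG), the motif of the MyoD family, was in 36 of the 42 (85.7%) and in 61.8% of tested genes, and in 17 of 20 called and 19 of 22 not called. Neither motif parts the called members from the rest, and a match of letters is no measured site. The part of *Mef2c* in the values of *Ttn* was not tested.

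The same sets of replicate numbers exist in the other 5 groups, whose libraries are not shared with Rest control but whose wells belong to the same sets. Rest *Tug1* KD myotubes had 894 genes higher (6.39%) and 753 lower (5.38%) between the sets. EPS 0h control myotubes had 2163 (15.5%) and 2294 (16.4%), and EPS 3h control myotubes 1330 (9.5%) and 1247 (8.91%), and the EPS groups with *Tug1* KD had 2510 (17.9%) and 1970 (14.1%) at 0h and 1295 (9.25%) and 987 (7.05%) at 3h. Of the 1194 genes higher in Rest control, 359 (30.1%) were also called higher and 0 lower in Rest *Tug1* KD, 736 (61.6%) were higher in EPS 0h control and 575 (48.2%) in EPS 3h control. Of the 1363 lower, 362 (26.6%) were lower and 2 higher in Rest *Tug1* KD, and 795 and 500 were lower in the EPS control groups. In all 6 groups 187 genes were called higher and 149 lower, and 926 and 847 of those called in Rest control had the same sign in all 6. Over the 36 libraries the replicate set took 9.84% of the variance, against 7.12% for the LNA and 59.99% for the EPS condition, and the libraries within a group 16.5%.

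The cholesterol genes were higher between the sets in every group, with a median log2FC of 0.34 in Rest *Tug1* KD (9 higher, 0 lower), 0.43 in EPS 0h control (18 and 0) and 0.49 in EPS 3h control (22 and 0). *Mmp2* had a log2FC of 0.94 in Rest *Tug1* KD. *Mybpc1* was expressed at 34.6, 37.3 and 31.6 RPM in replicates 1 to 3 and 9.03, 10.3 and 9.52 RPM in replicates 4 to 6 of Rest *Tug1* KD, close to its values in Rest control (log2FC -1.84, FDR = 1.54e-12). Sarcomere genes were lower there as well (0 higher, 22 lower, median -0.33). The median of the mtDNA-encoded genes, 0.40 in Rest control, was below 0 in every other group. It was -0.12 in Rest *Tug1* KD, with 0 called. EPS 0h control had -0.74 (6 lower) and its *Tug1* KD counterpart -0.77 (7 lower). EPS 3h control had -0.46 (1 lower), against -0.81 (8 lower) with *Tug1* KD. In each of these groups 0 were higher. Cell cycle genes varied, with 1 higher and 6 lower in Rest *Tug1* KD, but 10 and 1 in EPS 3h control. Some long muscle genes had other values. *Ryr1* was at 612, 564 and 501 RPM against 538, 516 and 649 RPM in Rest *Tug1* KD (log2FC 0.02), and *Ttn* had a log2FC of 0.37 and *Neb* of -0.25, neither called. The difference between the LNAs, tested as an interaction, was 0.85 for *Ryr1* (FDR = 0.113), 1.21 for *Ttn* (FDR = 0.103) and 0.97 for *Neb* (FDR = 0.13), and so did not pass. Over all genes 0 (0.0%) passed this interaction in edgeR, with 2425 at an unadjusted p under 0.05, and limma-voom called 0 while DESeq2 called 143.

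**Figure D5:**
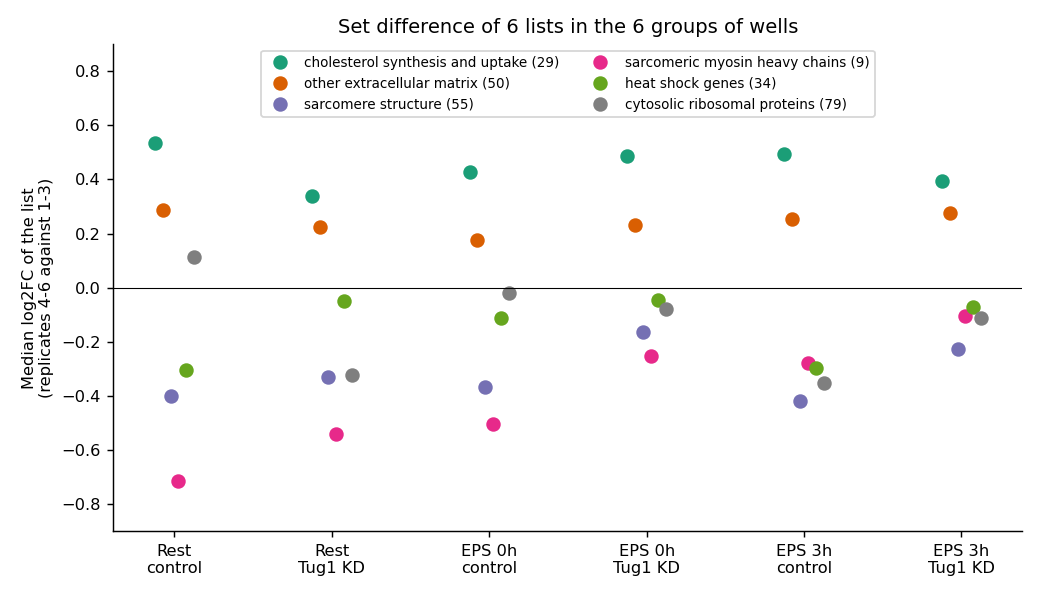
Median log2FC between the replicate sets (y axis) of 6 gene lists in each of the 6 groups (x axis), with the number of genes tested in brackets. Cholesterol genes lie between 0.34 and 0.53 and sarcomere genes below 0 in every group, while ribosomal protein genes are at 0.11 in Rest control and at -0.32 in Rest *Tug1* KD.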

How the data were processed

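Poly-A RNA of C2C12 myotubes was sequenced in 36 libraries as stranded 150-bp pairs. The authors trimmed the reads with fastp 0.14.1 (quality control in FastQC 0.11.7), aligned them with STAR 2.5 to GRCm39 and deposited whole-number counts per gene, without normalization. How reads that match several genes were counted is not given in the sources used here. Of 55416 rows 1492 have no gene name (0.0327% of counts). These kept their gene ID, entered the tests where they passed the filter and were left out of the rule for naming genes. Every pair of Rest control libraries differed by more than counting error (lowest chi-square over its degrees of freedom 5.21), so none was counted as a duplicate.

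In R 4.3.3 the genes reaching 1 RPM in 12 or more libraries (13995) were normalized by TMM and fitted in edgeR 4.0.16 (robust quasi-likelihood, 12 groups of 3 libraries, 24 residual degrees of freedom). FDR values are Benjamini-Hochberg adjusted over all genes tested, SEs are those of the log2FC, and RPM values are counts scaled to a TMM-adjusted library of 1e+06 reads. Data were simulated with the mean levels and library sizes of all 36 libraries and the spread of the 12-group fit. In them 200 of 13995 genes, all with a mean of at least 5 RPM, were changed by 1 (log2) in Rest control replicates 4 to 6. edgeR recovered 96% of these with 11 false calls, which does not cover weaker genes. Alternatives used limma-voom (limma 3.58.1), DESeq2 1.42.0, other scalings, filters, thresholds and samples in the fit, thinning of all libraries to 17005079 counts, offsets for transcript length and GC content (mgcv 1.9.3), and leaving out each library.

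The 2 sets, the gene lists and the rules were chosen with earlier results of these data known. Genes were named as the 12 highest and 12 lowest log2FC at an FDR under 0.01 with at least 5 RPM and no overlap, as up to 4 members per list with the lowest FDR, or after their values were seen (30 genes, such as *Ryr1*, *Fn1*, *Hmgcs1*, *Myod1*, *Mki67*, *Cxcl1* and *Rn18s*, and further list members named with their log2FC). Counts on genes per library are given above; their precision covers counting error only. The results for some genes are not reported here.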

Additional observations from a re-analysis of the deposited data

How the results depend on the processing

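The direction of the set difference held for all genes called in Rest control but 1, which changed sign with length and GC offsets. The counts of 1194 higher and 1363 lower moved by over 1.5 times with fewer libraries or another threshold. Leaving out single libraries gave 596 to 1269 higher and 639 to 1667 lower genes, with 621 and 795 without replicate 1, 749 and 888 without replicate 2, 596 and 639 without replicate 4, and 843 lower without replicate 5. The fit to the 12 Rest libraries called 1849 higher and the length and GC offsets 1919 higher. An FDR under 0.01 left 567 and 608, and a log2FC beyond 1 left 85 and 220. An FDR under 0.01 in the other groups left 351 higher and 312 lower in Rest *Tug1* KD, 1190 and 1118 in EPS 0h control, 1439 and 899 in EPS 0h *Tug1* KD, 665 and 584 in EPS 3h control, and 519 and 355 in EPS 3h *Tug1* KD. The interaction of set and LNA at Rest, 0 in edgeR, gave 143 with DESeq2, 216 without a filter on low counts and 83 with the replicate block, and the 359 genes higher in both Rest groups were 223 without the filter. The causes were not tested.

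The replicate numbers of the sets (1 to 3 and 4 to 6) share no number, so nothing pairs them. A replicate block, with the number within its set as a term across the 12 groups, called 1447 higher and 1682 lower. DESeq2 called 1505 and 1437, limma-voom 1239 and 1444, scaling by library size only 986 and 1564, and no filter 970 and 1247. Of 201 named genes 167 were called, 112 kept the call under every alternative and 53 lost it without 1 replicate. The offsets and the overlap without replicate 6 were added after seeing the data for the lists and the overlap. Counts near 1 RPM rest on few reads (3 counts are about 0.139 to 0.157 RPM in replicates 1 and 2), so values of weak genes are imprecise.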

Other observations

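Interferon response genes, which act against viruses, differed in replicates 4 to 6 mainly by lower values. Of 36 tested 9 were called lower and 2 higher (9.74% and 8.53% of all genes), with a median log2FC of -0.48. *Oas2*, which makes the messenger that activates RNase L, was at 1.36, 2.17 and 1.91 RPM in replicates 1 to 3 and 0.386, 0.188 and 0.595 RPM in replicates 4 to 6 (log2FC -2.19, SE 0.46, FDR = 0.00119). *Isg15*, a ubiquitin-like modifier, was at 5.13, 9.24 and 7.59 RPM against 4.29, 3.20 and 3.36 RPM (log2FC -1.02, SE 0.24, FDR = 0.00419). Neither gene had overlapping sets. The members called higher, *H2-K1* (0.36) and *H2-D1* (0.45), encode the classical MHC class I chains that present peptides, and *H2-K1* lost its call without replicate 1 (FDR = 0.0699). In Rest *Tug1* KD the list had 23 lower and 0 higher with a median of -0.88.

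Imprinted genes, expressed from a single parental copy, held 6 lower and 0 higher of 19 tested, with a median log2FC of -0.33. *Zim1* was at 68.7, 74.2 and 63.3 RPM against 23.8, 30.9 and 39.7 RPM (log2FC -1.13, SE 0.17, FDR = 4.85e-05), and *Peg3*, its neighbour on chromosome 7, at 216, 233 and 223 RPM against 104, 132 and 161 RPM (log2FC -0.76, SE 0.17, FDR = 0.00205). Both had sets apart, and replicate 6 was the highest of its set. *Mest* on chromosome 6 was lower too (-0.80, SE 0.15, FDR = 0.000298).

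Beyond the lists, *Tbc1d2*, a Rab GTPase-activating protein, had the highest log2FC of the genes named by rule, at 4.50, 4.66 and 4.63 RPM against 17.3, 14.4 and 17.5 RPM (log2FC 1.83, SE 0.19, FDR = 1.64e-07). *Mgst1*, a microsomal glutathione transferase, was at 5.34, 5.54 and 7.04 RPM against 19.7, 17.5 and 14.2 RPM (log2FC 1.52, SE 0.20), and *Ephb6*, a kinase-inactive ephrin receptor, at 65.5, 83.0 and 81.1 RPM against 217, 204 and 153 RPM (log2FC 1.32, SE 0.19). The sets were apart in all 3. Of the immediate early genes 3 of 36 were lower and 0 higher (median -0.17), and *Nr4a1* was at 86.9, 72.6 and 65.7 RPM against 50.5, 40.5 and 53.04 RPM (log2FC -0.64, SE 0.15, FDR = 0.00281).

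The remaining lists held few calls. Of 21 circadian clock genes 1 was higher and 2 lower (0 and 5 without replicate 6), of 26 atrophy and FOXO genes 2 and 1 (1 and 1), of 29 genes of the insulin-like growth factor axis and myokines 2 and 1 (4 and 2), of 6 metallothionein and zinc genes 1 and 0, and of 23 histone genes 3 and 3. Markers of other cells passed the filter in part, with 5 of 8 endothelial, 6 of 11 osteoblast and chondrocyte, and 4 of 9 neural and glial genes tested. Among the bone genes *Spp1*, osteopontin, was higher (log2FC 0.38, a call lost without replicate 1, 2, 5 or 6) and *Dmp1* (-1.33) and *Alpl* (-1.45) were lower, while *Ibsp*, bone sialoprotein, was at 0 counts in all 6 libraries.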
